A study of Homo sapiens with 12 samples.

Results

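Potassium channels and the voltage-gated sodium and calcium channels set the resting potential of excitable cells and shape their action potentials. The genes described here are the 141 protein-coding genes, of 58051 genes in the deposited table, whose GENCODE release 29 name begins with KCN, SCN or CACN and runs on to a number. By name, 96 belong to the potassium, 18 to the sodium and 26 to the calcium channel families. The remaining gene, SCNM1, matched by name only: it encodes a splicing factor, and it is counted among the 141 but in no family. Their mRNA was measured by poly-A RNA-seq in NB-1, an established human neuroblastoma cell line with amplified MYCN and ALK. Cultures were kept for 48 h with 0.5 µM BEZ-235 (dactolisib, an inhibitor of the kinases PI3K and mTOR), with 0.5 µM SAHA (vorinostat, an inhibitor of histone deacetylases), with both drugs at these doses, or with the solvent DMSO alone. Each of the 4 groups held 3 biological replicates of this line, so no other line or genotype enters any value.

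Sodium channels carry the fast upstroke of the action potential, potassium channels repolarise the membrane and hold it at rest, and calcium channels turn a depolarisation into calcium entry, which drives transmitter release and gene expression. Pore-forming subunits travel with accessory subunits that set their surface level and gating, and some potassium channel subunits are electrically silent and work only inside a channel with another subunit. Neuroblastoma arises from the sympathetic lineage, whose neurons use M-type potassium channels of the KCNQ group, N-type calcium channels built on CACNA1B and the sodium channel SCN9A. Many neuronal channel genes, SCN2A among them, are classic targets of the repressor REST, which recruits histone deacetylases.

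Levels are in CPM, counts scaled to the size of the library with TMM factors, and levels of different genes are compared only per kilobase of annotated exon. A gene was called higher or lower at a Benjamini-Hochberg adjusted p under 0.05 in edgeR's 2-sided quasi-likelihood test over all 17774 genes tested. Fold changes are given on the log2 scale, and errors after ± are their SE, with n = 3 libraries per group. The libraries held 17662944 to 79543539 counts, SAHA replicate 2 being the deepest and no other exceeding 29544051. Of the channel genes, 77 had enough counts to be tested (50 potassium, 12 sodium, 14 calcium and SCNM1), 52 had too few and 12 were at 0 in every library. All 12 adrenergic neuroblastoma markers chosen to check the label were tested, with a sum of 1562 to 1802 CPM with BEZ-235, 1649 to 1861 with SAHA, 1963 to 2534 with both drugs and 1836 to 2138 with DMSO. Of 8 Schwann cell and glial markers, 4 were tested. Their sum over the 8 was 2.268 to 3.97 CPM with DMSO and 7.965 to 9.618 CPM with SAHA. Within that list, SOX10 was at 0 in every library. The deviation of a gene's level in a library from its mean rose with GC content in the 3 libraries of both drugs. There r across genes was 0.318, 0.49 and 0.575, against -0.343 to 0.0152 in the other 9. These deviations are from the mean of all 12 libraries, so a rise in some goes with a fall in others. The r was below 0 in libraries such as BEZ-235 replicate 3 (-0.343), SAHA replicate 3 (-0.332) and DMSO replicate 3 (-0.234). That alone does not show an opposite GC dependence of their own. A correction for GC content and gene length (named below as the correction) was also made. For a channel gene whose log2 fold change with both drugs against DMSO is given below, the corrected value is printed where it differs enough. That is where the log2 fold change moves by over 1.5 times or its call changes. For genes outside the channel set no corrected value is given.

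Channel genes took up more of the counts in every treated group than with DMSO. They made up 0.191 to 0.198% of the counts with BEZ-235, 0.194 to 0.226% with SAHA, 0.242 to 0.283% with both drugs and 0.162 to 0.179% with DMSO, so that no treated library overlapped a DMSO library. In such bulk samples, fewer cells of a type and less RNA per cell cannot be told apart. Per kilobase of exon, the highest mean level over all libraries was that of SCN3B, a sodium channel beta subunit, at 42.8 CPM per kb. The potassium channel KCNH2 (hERG) stood at 23.3 CPM per kb and the gamma subunit CACNG4 at 19.6. The highest sodium channel pore gene, SCN9A, stood at 4.56 CPM per kb, and the highest calcium channel pore gene, CACNA1B, at 8.37.

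BEZ-235 moved channel genes in both directions in like number, whereas SAHA and the pair of drugs moved them mostly upward. With BEZ-235, 25 of the 77 genes were higher and 23 lower than with DMSO, where 25.5% of all genes tested were higher and 25.4% lower (50.9% called in all). With SAHA, 37 were higher and 7 lower, where 22.2% of all genes were higher and 20.9% lower (43.1% in all). With both drugs, 40 were higher and 15 lower, where 33.2% of all genes were higher and 31.2% lower (64.4% in all). The median log2 fold change of the 77 genes was -0.02 with BEZ-235 (0.02 over all genes tested), 0.30 with SAHA (-0.01) and 0.50 with both drugs (0.03). With the correction, BEZ-235 left 29 genes higher and 23 lower, and SAHA 40 and 10. Both drugs then left 42 higher and 17 lower, with a median of 0.37. Corrected shares of all genes were 29.3% higher and 27.2% lower with BEZ-235, 22.4% and 28.7% with SAHA, and 33.2% and 32.6% with both drugs. These 3 comparisons share their DMSO libraries. Groups that do not overlap were common over all genes tested: the libraries lay wholly above DMSO for 29.9% of genes with BEZ-235, 27.4% with SAHA and 34% with both drugs, and wholly below it for 29.3% with BEZ-235, 26.8% with SAHA and 32.2% with both drugs.

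In the sodium family, most genes that moved were lower with BEZ-235 and higher with SAHA. Of its 12 tested genes, 3 were higher and 6 lower with BEZ-235 (median -0.62), 9 higher and 1 lower with SAHA (0.88), and 7 higher and 3 lower with both drugs (0.75). Of the 50 potassium channel genes, 17 were higher and 15 lower with BEZ-235 (0.07), 22 higher and 5 lower with SAHA (0.23), and 25 higher and 9 lower with both drugs (0.45). Of the 14 calcium channel genes, 5 were higher and 2 lower with BEZ-235 (-0.03) and 6 higher and 1 lower with SAHA (0.12). With both drugs, 7 were higher and 3 lower (0.65). The correction changed the counts with both drugs. They were then 9 higher and 2 lower for sodium (0.51), 24 and 13 for potassium (0.31), and 8 and 2 for calcium (0.36). Set directly against SAHA, BEZ-235 left 20 channel genes higher and 36 lower, where 29.8% of all genes tested were higher and 30% lower (59.7% in all). The widest of these differences were those of SCN1A (-5.27), SCN3A (-4.45) and KCNJ4 (-4.42, or -6.61 without BEZ-235 replicate 1), all lower with BEZ-235, and of KCNF1 (5.57), higher with BEZ-235. In that comparison the sodium family split into 2 higher and 8 lower, the potassium family into 13 and 24, and the calcium family into 5 and 4. Whether the families differ from each other was not tested. For each count against DMSO by family or role, here and below, the shares over all genes are those given above for that comparison.

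**Figure D1:**
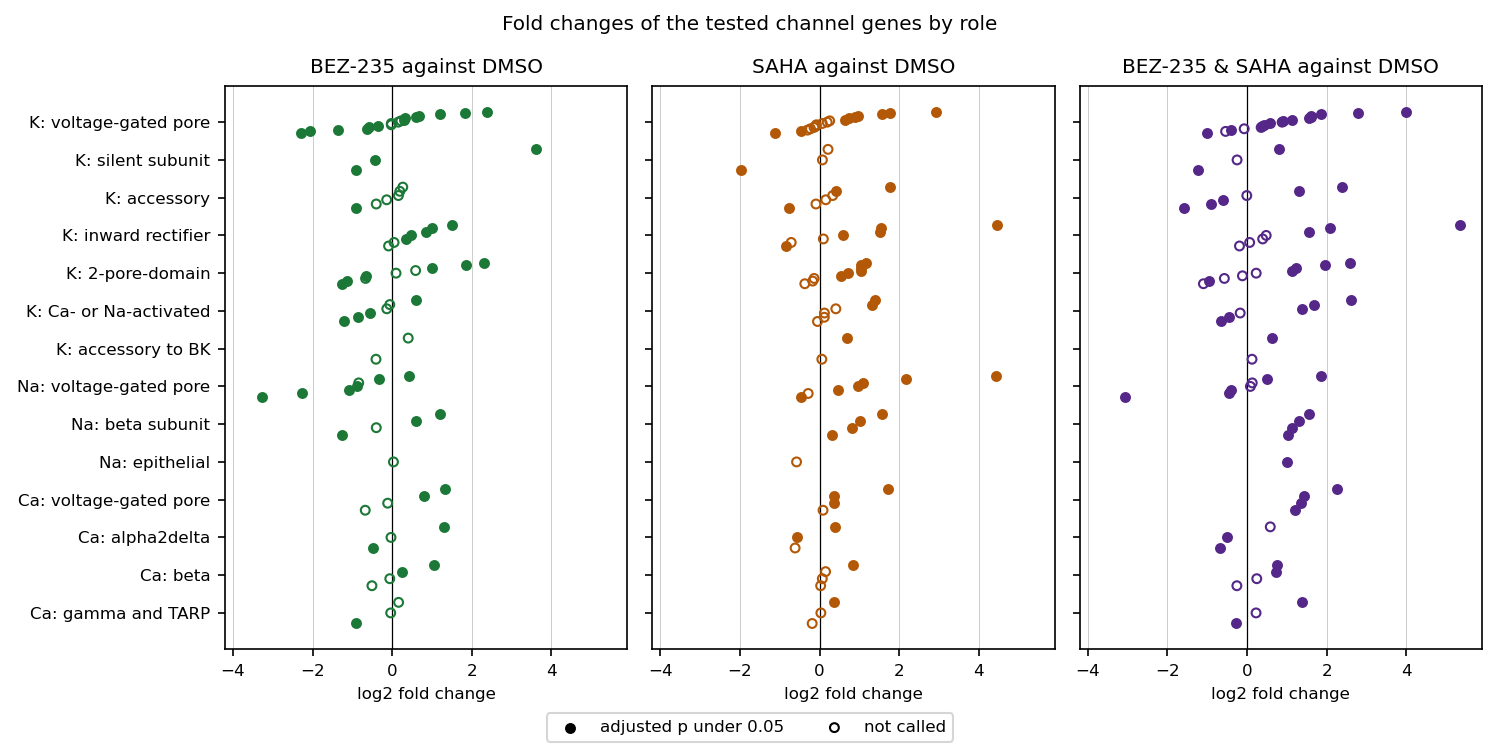
Log2 fold change against DMSO (horizontal axis) of the tested channel genes, one point per gene, in rows by role, for BEZ-235, SAHA and both drugs, with filled points called and open points not called. The sodium pore row lies mostly left of 0 with BEZ-235, where 5 of its 7 genes were lower, and mostly right of it with SAHA, where 5 were higher, while all 4 sodium beta genes lie right of 0 with both drugs.

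Among the pore-forming sodium channel subunits, SCN2A, SCN3A and SCN9A were lower with BEZ-235 and higher with SAHA. Of 7 tested pore genes, 1 was higher and 5 were lower with BEZ-235, 5 were higher and 1 was lower with SAHA, 2 were higher and 3 lower with both drugs, and 6 were lower with BEZ-235 than with SAHA. With the correction, 4 were higher and 2 lower with both drugs. Their summed level was 113.6 to 126.7 CPM with BEZ-235, 241.3 to 307.9 with SAHA, 144.7 to 160.6 with both drugs and 135.9 to 181.6 with DMSO. SAHA alone stood above all other groups and BEZ-235 alone below them, and the libraries of both drugs lay within the span of the DMSO libraries. The sum of 8 fibroblast markers was also lowest with BEZ-235, at 36.94 to 41.67 CPM, and highest with SAHA, at 419.7 to 470.7 CPM, while it was 174.4 to 195.7 CPM with both drugs and 105.7 to 115.9 CPM with DMSO. Of these 8 markers, none was higher and 3 were lower with BEZ-235, and 5 were higher and none lower with SAHA. With both drugs, 4 were higher and 3 lower. The shares over all genes are those given above beside the channel genes. None of the 8 was at 0 in all 3 libraries of a group. A sum of 8 Schwann cell and glial markers was 1.118 to 1.662 CPM with BEZ-235, 7.965 to 9.618 with SAHA, 7.011 to 8.665 with both drugs and 2.268 to 3.97 with DMSO. The part of either marker set in the channel results was not tested.

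SCN9A, the sodium channel of nociceptors and sympathetic neurons, showed the pattern at a high level. It stood at 27.4, 24.8 and 29.5 CPM with BEZ-235, 142, 116 and 108 CPM with SAHA, 46.5, 45.6 and 38.6 CPM with both drugs and 55.3, 47.01 and 70.6 CPM with DMSO. No library of BEZ-235 or SAHA overlapped a DMSO library, and the lowest SAHA library was above the highest of every other group. The log2 fold change against DMSO was -1.08 ± 0.14 with BEZ-235 (edgeR adjusted p = 1.73e-05), 1.08 ± 0.14 with SAHA (1.6e-05) and -0.41 ± 0.14 with both drugs (0.0187). The call with both drugs was lost without replicate 3 of both drugs or DMSO replicate 3 (-0.26 at the least) and with the correction (-0.01). BEZ-235 against SAHA gave -2.16 ± 0.14 (edgeR adjusted p = 6.54e-09).

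SCN3A, a sodium channel most abundant in the developing brain, was also lowest with BEZ-235 and highest with SAHA, over a wider span. Its levels were 0.643, 0.642 and 1.12 CPM with BEZ-235, 19.1, 19.4 and 15.4 CPM with SAHA, 4.36, 4.03 and 4.64 CPM with both drugs and 3.97, 2.73 and 5.203 CPM with DMSO. Both single drugs were clear of DMSO, on opposite sides, and the libraries of both drugs lay among those of DMSO. The log2 fold change was -2.27 ± 0.27 with BEZ-235 (edgeR adjusted p = 2.7e-06), 2.18 ± 0.20 with SAHA (2.79e-07) and 0.13 ± 0.21 with both drugs (0.607). With the correction, the value with both drugs was 0.52 and called (edgeR adjusted p = 0.0175). BEZ-235 against SAHA came to -4.45 ± 0.24 (edgeR adjusted p = 1.95e-10), a level 21.8-fold lower with BEZ-235.

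SCN1A, a sodium channel of inhibitory neurons known from Dravet syndrome, was scarce without SAHA. It held 5, 2 and 3 counts with BEZ-235, 187, 400 and 154 with SAHA, 15, 18 and 33 with both drugs and 3, 5 and 11 with DMSO, which came to 0.268, 0.107 and 0.129 CPM with BEZ-235, 9.62, 5.03 and 5.29 CPM with SAHA, 0.797, 0.993 and 1.502 CPM with both drugs and 0.157, 0.235 and 0.489 CPM with DMSO. The SAHA libraries were far above all others, and those of both drugs lay between them and DMSO without overlap. The log2 fold change was -0.84 ± 0.61 with BEZ-235 (edgeR adjusted p = 0.271), 4.43 ± 0.39 with SAHA (2.44e-07) and 1.87 ± 0.44 with both drugs (0.00155), the first of which was not called. The level was 5.899-fold lower with both drugs than with SAHA alone (edgeR adjusted p = 5.99e-06).

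SCN2A, a main sodium channel of excitatory neurons, stood at 18.5, 19.7 and 20.9 CPM with BEZ-235, 47.1, 50.8 and 45.2 CPM with SAHA, 26.2, 26.9 and 25.4 CPM with both drugs and 25.2, 21.5 and 27.4 CPM with DMSO. SAHA was clear of every other group, and the libraries of both drugs overlapped those of DMSO. Its log2 fold change was -0.32 ± 0.10 with BEZ-235 (edgeR adjusted p = 0.0114), 0.95 ± 0.09 with SAHA (8e-07) and 0.08 ± 0.10 with both drugs (0.469). The fall with BEZ-235 was not called without DMSO replicate 3 (-0.26), and the value with both drugs was 0.51 and called with the correction (edgeR adjusted p = 4.09e-06).

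SCN7A, an atypical member that senses extracellular sodium, was low wherever BEZ-235 was present. It held 1, 3 and 4 counts with BEZ-235, 24, 88 and 25 with SAHA, 2, 1 and 6 with both drugs and 16, 19 and 48 with DMSO, or 0.0536, 0.1605 and 0.172 CPM with BEZ-235, 1.23, 1.11 and 0.858 CPM with SAHA, 0.106, 0.0552 and 0.273 CPM with both drugs and 0.836, 0.894 and 2.13 CPM with DMSO. SAHA overlapped DMSO, and every library that received BEZ-235 was below both. The log2 fold change was -3.26 ± 0.54 with BEZ-235 (edgeR adjusted p = 0.000102), -0.29 ± 0.39 with SAHA (0.582) and -3.06 ± 0.53 with both drugs (8.93e-05). Without replicate 3 of both drugs, the value with both drugs was -3.93.

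SCN8A, a channel of axon initial segments and nodes of Ranvier, rose in every treated group, and stood at 52.9, 52.7 and 58.2 CPM with BEZ-235, 64.5, 58.7 and 46.9 CPM with SAHA, 59.9, 61.4 and 51.9 CPM with both drugs and 41.1, 36.1 and 45.5 CPM with DMSO. No treated library overlapped DMSO, and the log2 fold change was 0.42 ± 0.12 with BEZ-235 (edgeR adjusted p = 0.00637), 0.47 ± 0.11 with SAHA (0.00322) and 0.50 ± 0.12 with both drugs (0.00126). SCN4A, SCN10A and SCN11A, the pore genes of skeletal muscle and of sensory neurons, were not tested. SCN10A was at 0 in every library, SCN4A had 1 count in all, and SCN11A had at most 5 counts in a library.

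**Figure D2:**
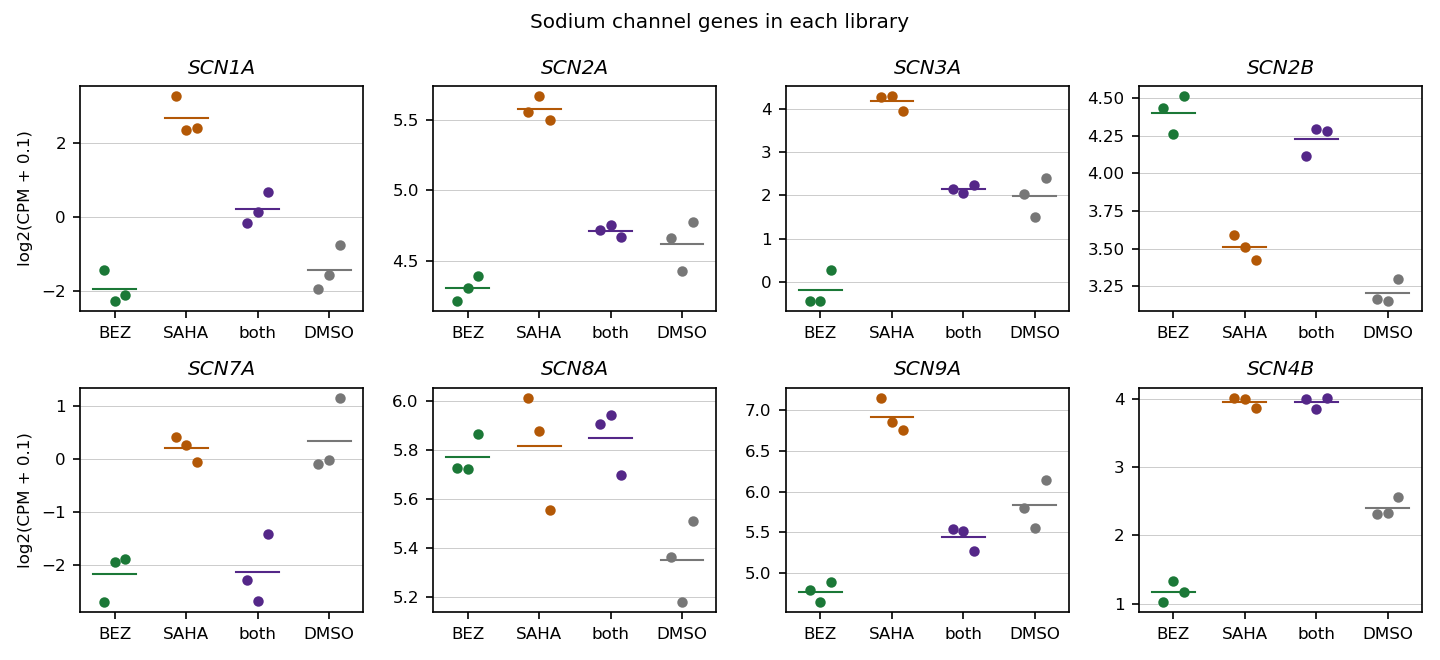
Level of 8 sodium channel genes in each library as log2(CPM + 0.1), with one point per library, a line at the mean of the 3 points, and its own vertical scale in each panel (BEZ stands for BEZ-235). SCN1A, SCN2A, SCN3A and SCN9A are highest with SAHA alone, SCN7A is low in every library that received BEZ-235, and SCN4B is low with BEZ-235 and at overlapping levels with SAHA and with both drugs.

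Of the 7 tested pore genes, 5 lie together on the long arm of chromosome 2, in the order SCN3A, SCN2A, SCN1A, SCN9A and SCN7A, over 1407 kb of build GRCh38. SCN2A is read from the plus strand and the others from the minus strand, and the tested genes CSRNP3, GALNT3 and TTC21B lie between SCN2A and SCN1A. These neighbours were added after the values of the cluster had been seen. The genes in this stretch did not move alike. With SAHA the log2 fold changes along it were 2.18 for SCN3A, 0.95 for SCN2A, 0.97 for CSRNP3, 0.61 (not called) for GALNT3, 0.31 for TTC21B, 4.43 for SCN1A, 1.08 for SCN9A and -0.29 (not called) for SCN7A. With BEZ-235 they were -2.27 for SCN3A, -0.32 for SCN2A, 0.40 for CSRNP3, 2.13 for GALNT3, 0.10 (not called) for TTC21B, -0.84 (not called) for SCN1A, -1.08 for SCN9A and -3.26 for SCN7A. The value of GALNT3 has an SE of 0.71 and rests on few counts, at a mean of 0.112 CPM with DMSO and 0.514 CPM with BEZ-235. SCN3A shares 9.91% and SCN9A 8.17% of its exon bases with an antisense gene. The library kit keeps strand, but whether the counting used it is not given in the sources used here.

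**Figure D3:**
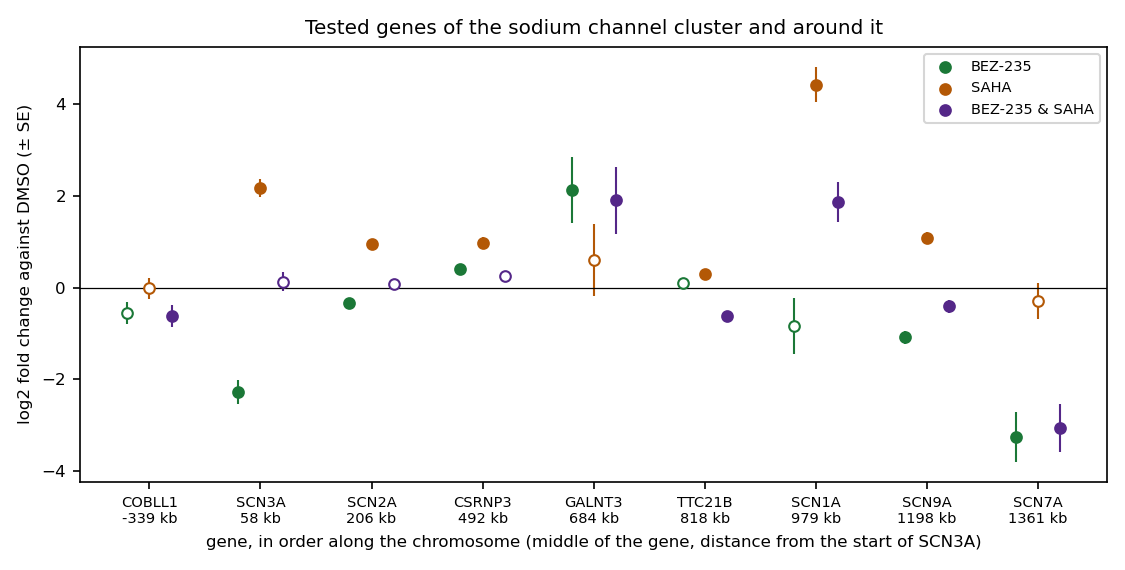
Log2 fold change against DMSO, with its SE, of the tested genes of the sodium channel cluster and its surroundings, in chromosomal order from left to right, with the distance of each gene's middle from the start of SCN3A. Filled points are called and open points are not. With SAHA, SCN1A (4.43) and SCN3A (2.18) stand above their neighbours, while SCN7A, at the right end, is low with BEZ-235 alone or combined.

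The 250 bases before the RefSeq start are shown for the cluster genes other than SCN3A because neighbours of one family differed in direction and size. They are listed 5′ to 3′ on the strand of the gene (build GRCh38.p14) and lie at chr2:166149162-166149411 (minus strand) for SCN1A, chr2:165239164-165239413 (plus) for SCN2A, chr2:166375945-166376194 (minus) for SCN9A and chr2:166494250-166494499 (minus) for SCN7A. Each of these listed starts lies inside its GENCODE gene. The window of SCN2A lies wholly inside the gene, and those of SCN1A, SCN9A and SCN7A lie partly inside. Capitals mark the GC box, GGGCGG or its reverse complement CCGCCC.
SCN1A: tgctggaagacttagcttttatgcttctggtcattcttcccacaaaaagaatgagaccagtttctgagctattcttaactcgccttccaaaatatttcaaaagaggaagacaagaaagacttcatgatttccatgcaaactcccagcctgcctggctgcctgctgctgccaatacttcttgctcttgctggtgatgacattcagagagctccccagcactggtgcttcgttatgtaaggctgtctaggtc
SCN2A: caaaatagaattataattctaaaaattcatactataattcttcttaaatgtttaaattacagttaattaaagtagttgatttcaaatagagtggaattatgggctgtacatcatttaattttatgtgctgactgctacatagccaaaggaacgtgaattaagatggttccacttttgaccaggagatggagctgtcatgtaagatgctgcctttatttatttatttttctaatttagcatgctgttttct
SCN9A: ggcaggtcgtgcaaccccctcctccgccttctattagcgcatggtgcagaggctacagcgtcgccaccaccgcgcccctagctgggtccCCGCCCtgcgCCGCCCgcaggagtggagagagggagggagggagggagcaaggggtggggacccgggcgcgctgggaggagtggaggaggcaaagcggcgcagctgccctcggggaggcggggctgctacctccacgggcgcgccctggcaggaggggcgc
SCN7A: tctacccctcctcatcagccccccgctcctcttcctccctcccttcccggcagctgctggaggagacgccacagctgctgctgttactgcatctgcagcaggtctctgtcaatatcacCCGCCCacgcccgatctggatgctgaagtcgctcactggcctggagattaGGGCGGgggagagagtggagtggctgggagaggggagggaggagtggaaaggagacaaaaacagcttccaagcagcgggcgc
SCN1A and SCN2A, both higher with SAHA, hold no GC box here, with 45.6% and 29.2% G or C. SCN9A, also higher with SAHA, and SCN7A, not called with it, hold 2 each, with 74.0% and 62.4% G or C. Windows of 300 bases (250 before to 50 after the start) were searched on either strand. A GC box occurred in 63.6% of the 99 channel genes matched in the RefSeq table and in 44.5% of its 27305 genes. The channel genes are all protein-coding, while the table was not limited to such genes. The core of the REST site (RE1), a longer motif, occurred on either strand in 0 of the 99 and in 0.0439% of the table. At so low a share no match was to be expected among 99 windows. The 0 therefore does not show that these genes lack REST sites. The E-box CACGTG occurred in 5.05% of the channel genes and 7.41% of the table, the FOXO site GTAAACA in 1.01% and 3.44%, and the TATA box TATAAA in 8.08% and 12%. A match says only that these letters are present.

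Sodium channel beta subunits, which tune gating and link the pore to the cell surface, were higher wherever SAHA was present. Of the 4, 2 were higher and 1 lower with BEZ-235, and all 4 were higher with SAHA and with both drugs. SCN3B, nearly all of their sum, stood at 394, 358 and 396 CPM with BEZ-235, 462, 460.1 and 399.9 CPM with SAHA, 530.2, 582 and 529 CPM with both drugs and 245, 231 and 276 CPM with DMSO. Every treated library lay above every DMSO library, and the log2 fold change was 0.61 ± 0.09 with BEZ-235 (edgeR adjusted p = 2.45e-05), 0.81 ± 0.09 with SAHA (1.89e-06) and 1.13 ± 0.09 with both drugs (1.24e-08).

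SCN4B and SCN2B lie next to each other on chromosome 11, both on the minus strand, and BEZ-235 moved them in opposite directions. SCN4B, the beta subunit of resurgent sodium current, stood at 1.93, 2.41 and 2.15 CPM with BEZ-235, 16.1, 15.8 and 14.5 CPM with SAHA, 15.9, 14.4 and 16.1 CPM with both drugs and 4.86, 4.94 and 5.83 CPM with DMSO. BEZ-235 was below DMSO, and the libraries of SAHA and of both drugs overlapped each other above it. Its log2 fold change was -1.27 ± 0.14 with BEZ-235 (edgeR adjusted p = 2.05e-06), 1.57 ± 0.12 with SAHA (5.26e-08) and 1.57 ± 0.12 with both drugs (1.17e-08). SCN2B stood at 21.5, 19.1 and 22.7 CPM with BEZ-235, 11.9, 11.3 and 10.6 CPM with SAHA, 17.2, 19.5 and 19.3 CPM with both drugs and 8.88, 8.799 and 9.74 CPM with DMSO. All treated libraries were above DMSO, and the log2 fold change was 1.21 ± 0.11 with BEZ-235 (edgeR adjusted p = 1.12e-07), 0.30 ± 0.11 with SAHA (0.0319) and 1.03 ± 0.11 with both drugs (3.48e-07). The call with SAHA was lost without SAHA replicate 1 or 2 and without DMSO replicate 1 or 2 (0.27 at the least), and with no filter on low counts (0.32). Of the epithelial sodium channel genes, SCNN1D alone was tested, and it was called with both drugs (1.0 ± 0.24, edgeR adjusted p = 0.00181), at 0.48 with the correction.

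Voltage-gated potassium channel pore genes changed in either direction with BEZ-235, and more were higher than lower with SAHA and with both drugs. Of 17 tested, 7 were higher and 6 lower with BEZ-235, 7 higher and 2 lower with SAHA, and 11 higher and 2 lower with both drugs. With the correction, 9 were higher and 4 lower with SAHA, and 8 higher and 4 lower with both drugs, where the median log2 fold change was 0.31, against 0.88 without it.

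KCNH3 and KCNH6, of the ether-à-go-go group, were both higher with SAHA, with or without BEZ-235. KCNH3 stood at 0.7504, 0.588 and 0.473 CPM with BEZ-235, 5.45, 3.95 and 4.74 CPM with SAHA, 8.13, 9.54 and 11.2 CPM with both drugs and 0.679, 0.753 and 0.4002 CPM with DMSO. BEZ-235 alone overlapped DMSO, and both groups that received SAHA were far above them, with a log2 fold change of 2.93 ± 0.25 with SAHA (edgeR adjusted p = 1.41e-07) and 3.98 ± 0.24 with both drugs (6.45e-10), which is 7.63-fold and 15.8-fold the DMSO level. Both drugs against SAHA gave 1.05 and a call for KCNH3, but 0.28 and no call with the correction (edgeR adjusted p = 0.114). KCNH6, a close relative of KCNH2, stood at 0.5896, 0.481 and 0.602 CPM with BEZ-235, 8.18, 6.399 and 6.73 CPM with SAHA, 7.44, 9.21 and 9.196 CPM with both drugs and 2.350, 2.12 and 2.62 CPM with DMSO. It was below DMSO with BEZ-235 alone and above DMSO in both groups that received SAHA, with log2 fold changes of -2.07 ± 0.22 with BEZ-235 (edgeR adjusted p = 1.06e-06), 1.57 ± 0.16 with SAHA (1.28e-06) and 1.86 ± 0.16 with both drugs (5.24e-08). KCNH2 itself was not called with BEZ-235 (-0.02 ± 0.11) or SAHA (-0.09 ± 0.11), although with the correction it was called at 0.24 with BEZ-235 and 0.19 with SAHA. Its rise with both drugs (0.37 ± 0.11, edgeR adjusted p = 0.00679) turned to -0.17 with the correction. KCNH8 of the same group fell with BEZ-235 (-0.35 ± 0.10) and with both drugs (-1.01 ± 0.10).

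The M-channel subunits KCNQ3 and KCNQ5, whose current restrains repetitive firing, moved in opposite directions with BEZ-235. KCNQ3 was scarce, at 0.375, 0.428 and 0.301 CPM with BEZ-235, 1.697, 2.09 and 1.44 CPM with SAHA, 1.38, 1.05 and 1.18 CPM with both drugs and 1.097, 0.847 and 0.889 CPM with DMSO. It lay below DMSO with BEZ-235 and above it with SAHA, and its log2 fold change was -1.36 ± 0.31 with BEZ-235 (edgeR adjusted p = 0.00167), 0.90 ± 0.25 with SAHA (0.00839) and 0.35 ± 0.27 with both drugs (0.259), the call with SAHA being lost without SAHA replicate 2 (0.73). KCNQ5 stood at 55.00, 58.7 and 66.6 CPM with BEZ-235, 37.1, 35.3 and 34.6 CPM with SAHA, 28.4, 31.7 and 25.5 CPM with both drugs and 36.8, 35.1 and 41.2 CPM with DMSO. It was above DMSO with BEZ-235 alone and below it with both drugs, with a log2 fold change of 0.67 ± 0.10 with BEZ-235 (edgeR adjusted p = 2.81e-05), -0.08 ± 0.10 with SAHA (0.524) and -0.40 ± 0.10 with both drugs (0.00209). With the correction, the value with SAHA was -0.24 and called.

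KCNA2, a Shaker-type channel of axons, stood at 0.536, 0.267 and 0.344 CPM with BEZ-235, 0.977, 1.03 and 0.549 CPM with SAHA, 1.22, 1.43 and 1.23 CPM with both drugs and 1.88, 1.22 and 2.53 CPM with DMSO. Both single drugs lay below DMSO, while both drugs together overlapped it, and the log2 fold change was -2.29 ± 0.37 with BEZ-235 (edgeR adjusted p = 7.77e-05), -1.12 ± 0.32 with SAHA (0.00874) and -0.54 ± 0.32 with both drugs (0.149). Without DMSO replicate 3 the value with SAHA was -0.84 and not called. KCND1, an A-type channel, rose in every treated group, by 1.84 ± 0.22 with BEZ-235 (edgeR adjusted p = 4.52e-06), 0.74 ± 0.23 with SAHA (0.0146) and 1.60 ± 0.23 with both drugs (1.13e-05), but its call with SAHA was lost without SAHA replicate 1 or DMSO replicate 2 (0.54 at the least). KCNC4 rose with BEZ-235 (0.59 ± 0.12) and fell with SAHA (-0.46 ± 0.12). Its call with both drugs (0.43 ± 0.12) was lost without replicate 2 of both drugs, without DMSO replicate 2 (0.26 at the least) and with the correction (0.11).

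Among the silent subunits, which assemble with other pore subunits, KCNF1 had the highest log2 fold change of all channel genes with BEZ-235. It stood at 2.41, 3.42 and 2.49 CPM with BEZ-235, 0.0514, 0.0629 and 0.0343 CPM with SAHA, 0.106, 0.276 and 0.182 CPM with both drugs and 0.209, 0.423 and 0.0445 CPM with DMSO, with 4, 9 and 1 counts in the DMSO libraries. The BEZ-235 libraries stood far above all others, and the libraries of both drugs lay among those of DMSO. The log2 fold change was 3.60 ± 0.45 with BEZ-235 (edgeR adjusted p = 5.79e-06), -1.97 ± 0.66 with SAHA (0.0236) and -0.25 ± 0.61 with both drugs (0.735), and that with both drugs was -0.73 with the correction, again not called. Without DMSO replicate 2, the value with BEZ-235 was 4.45 and that with SAHA was -1.11 and not called (edgeR adjusted p = 0.312). The value with SAHA was not called without SAHA replicate 2 (-2.28) or 3 (-1.81) either. With both drugs the level was 14.5-fold lower than with BEZ-235 alone (edgeR adjusted p = 3.43e-06). KCNG1 rose with both drugs (0.79 ± 0.15), and its call with BEZ-235 (-0.42 ± 0.15) was lost without BEZ-235 replicate 3 or DMSO replicate 1 or 2 (-0.29 at the least). KCNG3 fell with both drugs (-1.24 ± 0.37). Its call with BEZ-235 (-0.92 ± 0.35) was lost in DESeq2, without BEZ-235 replicate 1 or 3, without SAHA replicate 2 and without DMSO replicate 1 or 3 (-0.64 at the least).

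Of 6 tested accessory subunits of the voltage-gated potassium channels, none was higher and 1 lower with BEZ-235, 2 were higher and 1 lower with SAHA, and 2 higher and 3 lower with both drugs (2 and 2 with the correction). KCNIP2, a calcium-binding partner of A-type channels, stood at 3.86, 3.64 and 3.397 CPM with BEZ-235, 12.5, 10.7 and 9.44 CPM with SAHA, 17.1, 17.2 and 15.4 CPM with both drugs and 3.55, 2.92 and 3.07 CPM with DMSO. Both groups that received SAHA were above the others, with a log2 fold change of 1.77 ± 0.14 with SAHA (edgeR adjusted p = 7.09e-08) and 2.38 ± 0.14 with both drugs (3.95e-10), and 12.2% of its exon bases are shared with an antisense gene. KCNIP3, also known as the repressor DREAM, fell with SAHA (-0.78 ± 0.12) and with both drugs (-0.61 ± 0.12, or -0.97 with the correction). KCNIP4 was called lower with both drugs (-0.91 ± 0.26), but stood at -0.25 and was not called with the correction. KCNAB1 was called lower with both drugs (-1.58 ± 0.50) on 4, 5 and 1 counts, and not without replicate 3 of that group (-1.10).

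Of the 7 inward rectifiers tested, which pass potassium near rest, 5 were higher and none lower with BEZ-235, 4 higher and 1 lower with SAHA, and 3 higher and none lower with both drugs (4 and 1 with the correction). KCNJ9, a subunit of G protein-gated channels, stood at 13.99, 12.7 and 13.8 CPM with BEZ-235, 23.1, 19.4 and 16.6 CPM with SAHA, 25.1, 27.7 and 32.5 CPM with both drugs and 6.11, 7.81 and 6.27 CPM with DMSO. Every treated library was above DMSO, and the log2 fold change was 1.0 ± 0.15 with BEZ-235 (edgeR adjusted p = 2.75e-05), 1.54 ± 0.14 with SAHA (3.39e-07) and 2.08 ± 0.14 with both drugs (2.39e-09). KCNJ8, a pore of ATP-sensitive channels, stood at 48.9, 49.7 and 47.8 CPM with BEZ-235, 30.7, 28.2 and 28.6 CPM with SAHA, 32.4, 25.7 and 27.5 CPM with both drugs and 25.7, 30.4 and 25.8 CPM with DMSO. Its BEZ-235 libraries were clear above DMSO, and the other groups overlapped it (0.84 ± 0.10, edgeR adjusted p = 2.43e-06). KCNJ14 rose with BEZ-235 (1.49 ± 0.27) and was not called with SAHA (-0.71 ± 0.29, or -0.75 and called with the correction) or both drugs (0.39 ± 0.28, or 0.18 with the correction), and 16.5% of its exon bases are shared with a gene on the other strand. KCNJ12 rose with BEZ-235 (0.36 ± 0.10) and fell with SAHA (-0.84 ± 0.10), but its reads can be shared with the near-identical KCNJ18. With both drugs it was not called (-0.19 ± 0.10), or -0.65 and called with the correction (edgeR adjusted p = 8.78e-07).

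KCNJ4, a strong inward rectifier, was the 1 channel gene switched on, by the rule of under 0.1 CPM in all DMSO libraries and at least 0.5 CPM in all libraries of a treated group. It held 1, 0 and 0 counts with BEZ-235, 11, 35 and 11 with SAHA, 15, 19 and 15 with both drugs and 0, 0 and 1 with DMSO, or 0.0536, 0 and 0 CPM with BEZ-235, 0.566, 0.4400 and 0.378 CPM with SAHA, 0.797, 1.05 and 0.683 CPM with both drugs and 0, 0 and 0.0445 CPM with DMSO. Both groups that received SAHA were above all other libraries, but SAHA alone reached 0.5 CPM in 1 of its 3. Its summed counts per depth were 28 times those of DMSO with SAHA (exact 95% interval 4.82 to 1120, for counting error only) and 52.3 times with both drugs (8.96 to 2110), on 1 count over the DMSO libraries. The edgeR adjusted p was 0.000187 with SAHA and 6.91e-06 with both drugs. The fitted log2 fold changes were 4.47 ± 0.76 with SAHA and 5.35 ± 0.72 with both drugs, and became 6.59 and 7.45 without DMSO replicate 3. Both drugs against SAHA gave 0.88 ± 0.40 and no call (edgeR adjusted p = 0.0659), or 0.15 with the correction. The 250 bases before its RefSeq start, at chr22:38444029-38444278 on the minus strand (build GRCh38.p14), are shown because it was the 1 gene to meet this rule. The start listed for KCNJ4 lies inside the GENCODE gene too.
KCNJ4: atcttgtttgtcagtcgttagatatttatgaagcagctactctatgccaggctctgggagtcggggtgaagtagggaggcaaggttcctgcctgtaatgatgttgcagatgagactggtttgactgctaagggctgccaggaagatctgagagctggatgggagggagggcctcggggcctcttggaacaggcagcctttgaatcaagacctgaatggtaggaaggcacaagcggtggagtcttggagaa
It holds 52.4% G or C, and none of the 5 motifs named above occurs in its window. In GENCODE, 12.6% of its exon bases are shared with a gene on the other strand.

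No channel gene was switched off by the mirror rule. With the lower bound at 0.25 CPM, SCN7A was switched off with BEZ-235, and with the upper bound at 1 CPM no gene was switched on. At 0.5 CPM or more in all 3 libraries were 64 channel genes with BEZ-235, 69 with SAHA, 69 with both drugs and 66 with DMSO. Below 0.1 CPM in all 3 were 52 genes with BEZ-235, 48 with SAHA, 45 with both drugs and 49 with DMSO. KCNMA1, the pore of the BK channel, and the delayed rectifier KCNB2 had 1 count at most in any library. A count of 0 allows up to 3 counts, which are 0.0377 CPM in the deepest library and 0.103 to 0.165 CPM in the others, so in all but the deepest library a level under 0.1 CPM was not detectable as different from 0.

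Leak channels of the 2-pore-domain type, which hold the resting potential, were higher in sum in every treated group, at 41.4 to 46.26 CPM with BEZ-235, 32.86 to 39.19 with SAHA and 50.66 to 54.4 with both drugs, against 21.15 to 22.87 with DMSO. Of 9 tested genes, 3 were higher and 3 lower with BEZ-235, 6 higher and none lower with SAHA, and 4 higher and 1 lower with both drugs. With the correction, both drugs left 4 higher and 4 lower, and their median log2 fold change was -0.35, against 0.23 without it. The acid-sensitive KCNK3 stood at 26.1, 22.7 and 20.9 CPM with BEZ-235, 10.6, 8.76 and 8.79 CPM with SAHA, 24.7, 24.9 and 25.3 CPM with both drugs and 6.11, 7.58 and 5.69 CPM with DMSO. BEZ-235 with and without SAHA overlapped, above SAHA alone, which was above DMSO, and the log2 fold change was 1.84 ± 0.13 with BEZ-235 (edgeR adjusted p = 6.32e-09), 0.53 ± 0.13 with SAHA (0.00361) and 1.95 ± 0.13 with both drugs (1.43e-09). Its relative KCNK9 stood at 9.702, 7.65 and 10.1 CPM with BEZ-235, 5.14, 4.15 and 3.23 CPM with SAHA, 9.99, 12.03 and 10.97 CPM with both drugs and 2.04, 1.600 and 1.87 CPM with DMSO. The groups stood in the same order, with a log2 fold change of 2.32 ± 0.19 with BEZ-235 (edgeR adjusted p = 4.44e-08), 1.17 ± 0.19 with SAHA (0.000131) and 2.58 ± 0.19 with both drugs (5.52e-09). KCNK15 fell with BEZ-235 (-1.25 ± 0.40) on 2, 9 and 15 counts, and it shares 19.5% of its exon bases with RIMS4 on the other strand. With both drugs KCNK15 was not called (-0.57), or -0.98 and called with the correction (edgeR adjusted p = 0.041).

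KCNK10, a mechanosensitive leak channel, was called lower with BEZ-235 (-1.14 ± 0.39) and with both drugs (-0.94 ± 0.39) and higher with SAHA (1.04 ± 0.32). Each of these calls depended on single libraries. That with BEZ-235 was lost without BEZ-235 replicate 1 or 2 or DMSO replicate 1 or 2 (-0.98 at the least) and in DESeq2 (-1.17), and that with SAHA without SAHA replicate 1 or DMSO replicate 3 (0.81 at the least). That with both drugs was lost without replicate 1 or 2 of both drugs, SAHA replicate 2 or 3, or DMSO replicate 1 or 2 (-0.73 at the least), in DESeq2 (-0.97) and with no filter on low counts (-1.0). BEZ-235 against SAHA gave -2.18 ± 0.36 (edgeR adjusted p = 6.27e-05), with no overlap between those libraries.

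The small-conductance calcium-activated channels, which produce the pause after an action potential, differed among themselves. KCNN1 stood at 6.38, 5.08 and 4.56 CPM with BEZ-235, 9.57, 9.19 and 8.69 CPM with SAHA, 19.99, 20.3 and 23.8 CPM with both drugs and 3.19, 3.72 and 3.602 CPM with DMSO, with no overlap between any of the groups, and its log2 fold change was 0.60 ± 0.15 with BEZ-235 (edgeR adjusted p = 0.00338), 1.38 ± 0.14 with SAHA (1.18e-06) and 2.61 ± 0.14 with both drugs (1.47e-10). KCNN3 stood at 0.858, 0.374 and 1.16 CPM with BEZ-235, 6.02, 4.36 and 3.67 CPM with SAHA, 6.43, 5.96 and 5.78 CPM with both drugs and 1.93, 1.69 and 2.001 CPM with DMSO. It was below DMSO with BEZ-235 alone and above it in both groups that received SAHA, with a log2 fold change of -1.20 ± 0.30 with BEZ-235 (edgeR adjusted p = 0.00341), 1.30 ± 0.25 with SAHA (0.000507) and 1.69 ± 0.25 with both drugs (1.99e-05). KCNN2 fell with BEZ-235 (-0.57 ± 0.13) and with both drugs (-0.66 ± 0.13) and was not called with SAHA (0.12 ± 0.12).

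**Figure D4:**
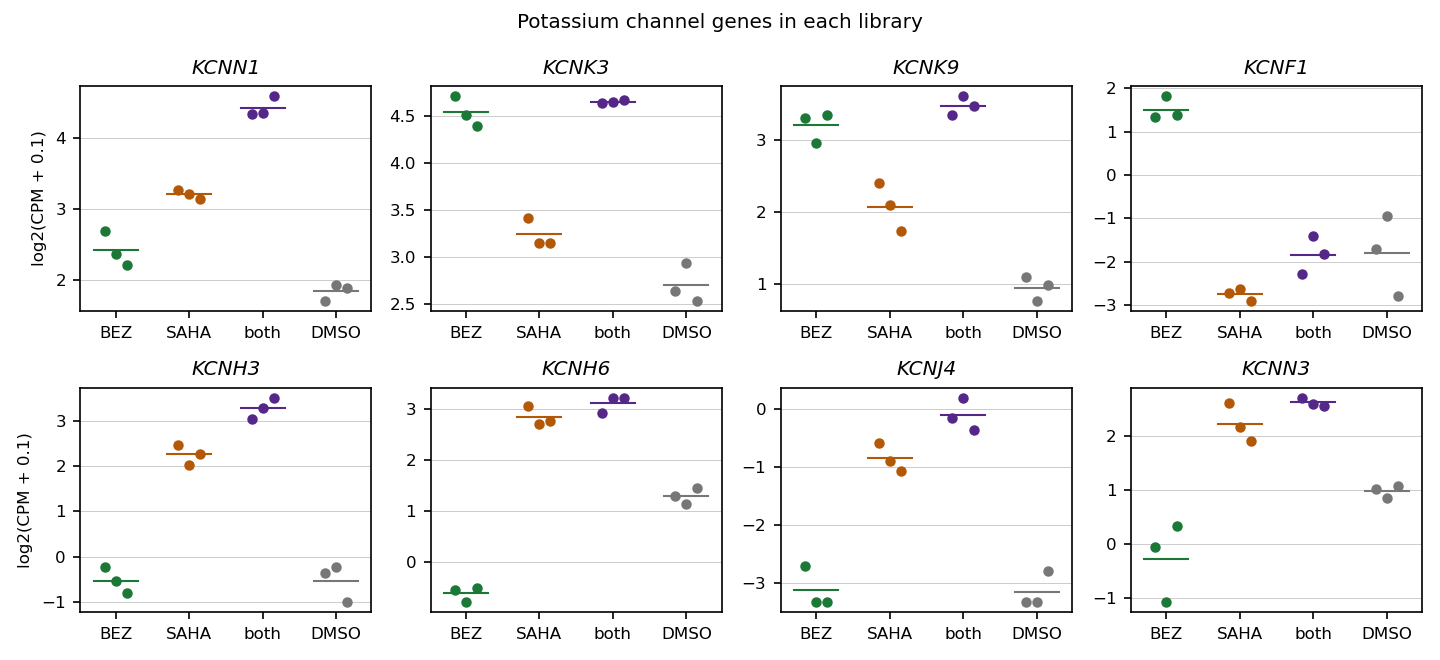
Level of 8 potassium channel genes in each library as log2(CPM + 0.1), with one point per library, a line at the mean of the 3 points, and its own vertical scale in each panel (BEZ stands for BEZ-235). KCNN1 is above DMSO in every treated library, KCNK3 and KCNK9 are highest where BEZ-235 was present, KCNF1 is high with BEZ-235 alone, and KCNH3, KCNH6, KCNJ4 and KCNN3 are high where SAHA was present.

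Of the 4 tested calcium channel pore genes, 2 were higher with BEZ-235, 3 with SAHA and all 4 with both drugs, and none was lower. CACNA1B, the N-type channel, stood at 98.4, 83.2 and 92.2 CPM with BEZ-235, 75.1, 68.7 and 57.03 CPM with SAHA, 109, 128 and 125 CPM with both drugs and 56.6, 43.9 and 57.1 CPM with DMSO. BEZ-235 with and without SAHA lay above DMSO, while SAHA alone overlapped it. Its log2 fold change was 0.80 ± 0.12 with BEZ-235 (edgeR adjusted p = 2.92e-05), 0.35 ± 0.12 with SAHA (0.022) and 1.20 ± 0.12 with both drugs (1.68e-07), or 0.77 with both drugs after the correction. The call with SAHA was lost without SAHA replicate 1 or 2 or DMSO replicate 2 (0.23 at the least). CACNA1C, an L-type channel, stood at 25.6, 24.2 and 25.8 CPM with BEZ-235, 14.9, 12.4 and 12.2 CPM with SAHA, 29.02, 26.9 and 26.4 CPM with both drugs and 11.3, 9.08 and 10.01 CPM with DMSO. Both groups that received BEZ-235 stood far above DMSO, with SAHA alone between, and the log2 fold change was 1.32 ± 0.11 with BEZ-235 (edgeR adjusted p = 4.86e-08), 0.37 ± 0.11 with SAHA (0.0113) and 1.44 ± 0.11 with both drugs (8.06e-09). Its call with SAHA was lost without SAHA replicate 1 or DMSO replicate 2 (0.29 at the least) and with the correction (0.17).

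The T-type channels CACNA1G and CACNA1H open at small depolarisations. CACNA1G was scarce, with 2, 3 and 4 counts with BEZ-235, 26, 50 and 16 with SAHA, 22, 20 and 27 with both drugs and 6, 5 and 4 with DMSO. Both groups that received SAHA were above DMSO, and the log2 fold change was -0.68 ± 0.55 with BEZ-235 (edgeR adjusted p = 0.344), 1.71 ± 0.42 with SAHA (0.00321) and 2.26 ± 0.42 with both drugs (0.000154), of which the first was not called. CACNA1H stood at 25.03, 19.6 and 18.8 CPM with BEZ-235, 28.5, 22.6 and 22.1 CPM with SAHA, 45.3, 59.3 and 70.9 CPM with both drugs and 24.2, 23.8 and 20.6 CPM with DMSO. Single drugs overlapped DMSO, and both drugs were above it (1.36 ± 0.16, edgeR adjusted p = 2.18e-06), at 0.74 with the correction. CACNA1A, CACNA1D, CACNA1E, CACNA1F, CACNA1I and CACNA1S were not tested, with at most 17 counts in any library.

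Accessory calcium channel subunits moved in both directions. Of 3 tested alpha2delta subunits, which raise the number of channels at the surface, 1 was higher and 1 lower with BEZ-235, 1 higher and 1 lower with SAHA, and none higher and 2 lower with both drugs. CACNA2D2 fell in every treated group, and stood at 48.8, 47.3 and 46.4 CPM with BEZ-235, 47.3, 44.6 and 41.7 CPM with SAHA, 41.9, 49.98 and 48.3 CPM with both drugs and 76.8, 58.5 and 64.3 CPM with DMSO. No treated library overlapped DMSO, and the log2 fold change was -0.49 ± 0.10 with BEZ-235 (edgeR adjusted p = 0.000671), -0.58 ± 0.10 with SAHA (0.000174) and -0.51 ± 0.10 with both drugs (0.000283), or -0.87 with both drugs after the correction. CACNA2D1 was called lower with both drugs (-0.67 ± 0.12), but stood at -0.17 and was not called with the correction. Its call with SAHA (0.39 ± 0.12) was lost without SAHA replicate 1 or DMSO replicate 1 or 2 (0.26 at the least). CACNA2D4 was called with BEZ-235 (1.30 ± 0.42), but not without BEZ-235 replicate 1 (1.01) or DMSO replicate 2 (0.99).

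CACNB3, a beta subunit, rose with both drugs (0.75 ± 0.07, edgeR adjusted p = 1.1e-07), or by 0.37 with the correction, and its call with BEZ-235 (0.24 ± 0.07) was lost without DMSO replicate 3 (0.19) and with no filter on low counts (0.21). CACNG4 and CACNG7 are better known as regulators of AMPA receptors than of calcium channels. CACNG4 stood at 42.2, 44.6 and 43.1 CPM with BEZ-235, 63.8, 73.9 and 77.9 CPM with SAHA, 65.5, 65.5 and 71.3 CPM with both drugs and 93.2, 81.4 and 71.4 CPM with DMSO. BEZ-235 alone was clear below every other group (-0.92 ± 0.10, edgeR adjusted p = 1.05e-06). Its call with both drugs (-0.28 ± 0.10) was lost without DMSO replicate 1 (-0.20), and the value was -0.56 with the correction. CACNG7 stood at 28.2, 22.7 and 20.00 CPM with BEZ-235, 27.00, 26.9 and 26.9 CPM with SAHA, 48.3, 61.01 and 54.6 CPM with both drugs and 22.3, 22.02 and 19.1 CPM with DMSO, with both drugs above all other libraries (1.37 ± 0.12, edgeR adjusted p = 4.21e-08). Its call with SAHA (0.35 ± 0.12) was lost without any one SAHA replicate or DMSO replicate 3 (0.28 at the least).

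Both drugs together were also set against each drug alone. Against BEZ-235, both drugs left 44 channel genes higher and 11 lower, where 29.5% of all genes tested were higher and 28.5% lower (58% in all). Against SAHA, they left 33 higher and 18 lower, where 29.9% of all genes were higher and 28.9% lower (58.8% in all). With the correction, 37 were higher and 18 lower against BEZ-235, where 26.4% of all genes were higher and 29.9% lower. Against SAHA, the corrected counts were 27 higher and 21 lower, where 28.5% of all genes were higher and 24% lower. The median against SAHA was 0.12 with the correction and 0.31 without it. Of the 12 sodium channel genes, 9 were higher and 0 lower against BEZ-235, while 3 were higher and 5 lower against SAHA. With the correction, 7 were higher and 1 lower against BEZ-235, and 3 higher and 6 lower against SAHA. The largest differences from BEZ-235 alone were those of KCNJ4 (5.30), KCNH3 (4.0), KCNH6 (3.93) and CACNA1G (2.94) upward, and of KCNF1 (-3.86), KCNJ14 (-1.10), KCNQ5 (-1.08) and KCNIP4 (-1.06, or -0.45 and not called with the correction) downward. Without BEZ-235 replicate 1, the value of KCNJ4 was 7.46. From SAHA alone, SCN7A (-2.77), SCN1A (-2.56), SCN3A (-2.05) and KCNK10 (-1.99) stood lowest, SCN7A being at -3.65 without replicate 3 of both drugs. SCNN1D (1.58, or 0.80 with the correction), KCNK3 (1.42) and KCNK9 (1.41) stood high, and so did KCNF1 (1.71), on few counts, whose call was lost in DESeq2 (1.80), with the correction (0.89) and without any one of 9 libraries, at 1.34 (without replicate 2 of both drugs) to 2.03 (without SAHA replicate 2).

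How far the effect of SAHA differed when BEZ-235 was present (the interaction: both drugs over BEZ-235, less SAHA over DMSO) reached the call threshold for 38 channel genes, with 25 above and 13 below 0, where 18.9% of all genes tested were above and 19.6% below (38.4% in all). The correction took this to 12 above and 14 below 0, and to 10.4% above and 9.31% below over all genes. The SAHA effect on KCNA2 was 1.75 with BEZ-235 and -1.12 without it, an interaction of 2.87 ± 0.50 (edgeR adjusted p = 0.000512), or 3.08 with the correction. For KCNH6 it was 3.93 with BEZ-235 and 1.57 without it (2.36 ± 0.27, edgeR adjusted p = 3.7e-05, or 1.77 with the correction). Above 0 also stood KCNN3 (1.58) and SCNN1D (1.54, or 0.52 and not called with the correction), and below 0 stood, among others, KCNIP4 (-1.39, or -0.75 and not called with the correction), CACNA2D1 (-1.03, or -0.40) and KCNQ5 (-0.99). The interactions of KCNH2, KCNN1, CACNB3, SCN2A, KCNJ11, KCNAB2 and KCNT2 changed sign with the correction.

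**Figure D5:**
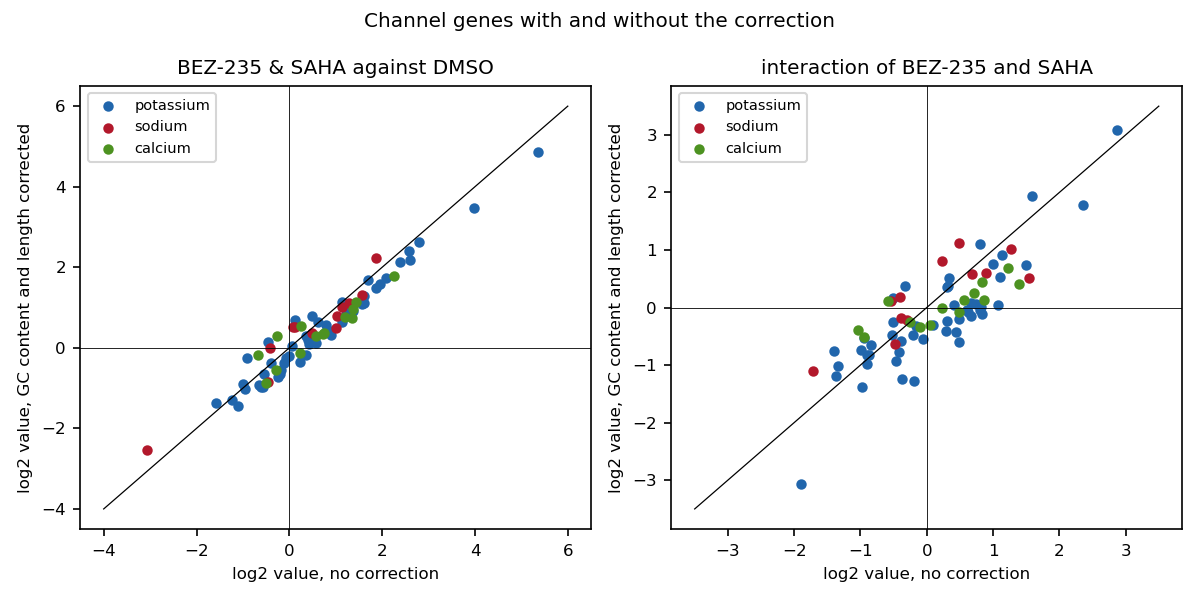
Log2 fold change of both drugs against DMSO, and the interaction, without (horizontal axis) and with (vertical axis) the correction for GC content and length, one point per tested channel gene, coloured by family, with the line of equal values. KCNH2 stands at 0.37 without and -0.17 with the correction in the first panel and at 0.48 without and -0.59 with it in the second, where KCNA2 stands highest (2.87 without and 3.08 with it).

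Of a list of 48 genes in the table that work with these channels (partners), 38 were tested. With BEZ-235, 21 were higher and 7 lower, with SAHA 20 and 4, and with both drugs 24 and 8. Over all genes tested, 25.5% were higher and 25.4% lower with BEZ-235, 22.2% and 20.9% with SAHA, and 33.2% and 31.2% with both drugs. ANK3, which anchors sodium and KCNQ channels at the axon initial segment, stood at 5.68, 6.58 and 7.05 CPM with BEZ-235, 90.2, 87.1 and 76.9 CPM with SAHA, 24.9, 24.8 and 25.1 CPM with both drugs and 33.3, 26.6 and 31.6 CPM with DMSO. It was below DMSO with BEZ-235 and above it with SAHA, and its log2 fold change was -2.24 ± 0.11 with BEZ-235 (edgeR adjusted p = 1.3e-10), 1.47 ± 0.10 with SAHA (1.04e-08) and -0.29 ± 0.10 with both drugs (0.0187). LGI1, a secreted partner of Kv1 channels, rose by 1.85 with BEZ-235, 1.86 with SAHA and 2.33 with both drugs. GEM, an inhibitor of calcium channels, rose by 1.41 with BEZ-235, 1.39 with SAHA and 1.21 with both drugs. The calcium release channel ITPR2 had -1.28 with BEZ-235, -0.35 with SAHA and -1.83 with both drugs, each of them called. No corrected values are given for these partners.

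Of REST and its corepressors, 14 were tested. With BEZ-235, 4 were higher and 4 lower, with SAHA 3 and 5, and with both drugs 5 and 7. The shares of all genes tested were 25.5% and 25.4% with BEZ-235, 22.2% and 20.9% with SAHA, and 33.2% and 31.2% with both drugs. REST itself had a log2 fold change of 0.16 ± 0.11 with BEZ-235 (edgeR adjusted p = 0.245), -0.22 ± 0.11 with SAHA (0.121) and -0.48 ± 0.11 with both drugs (0.00142), of which the last was called. All 10 DNA replication genes were lower with BEZ-235 and with both drugs, and 9 of them with SAHA, with a median of -2.09 with BEZ-235, -0.53 with SAHA and -2.56 with both drugs. Adrenergic markers split into 4 higher and 4 lower of 12 with BEZ-235, 1 and 4 with SAHA, and 5 and 4 with both drugs. Of 8 Schwann cell and glial markers, 4 were tested, with none higher and 1 lower with BEZ-235, 3 higher and none lower with SAHA, and 2 higher and none lower with both drugs. Leukocyte and muscle markers were nearly absent from the tested genes (1 of 8 and 3 of 12). The 1 leukocyte marker was higher with BEZ-235 and was not called with SAHA or both drugs, and of the 3 muscle markers 1 was higher and 1 lower with BEZ-235, 1 and 1 with SAHA, and 2 and 1 with both drugs. The part of these lists in the channel results was not tested, and no corrected values are given for their genes.

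Another 25 tested channel genes, outside the rule for genes named, held 4 higher and 5 lower with BEZ-235 (from -0.92 for KCNAB3 to 1.04 for CACNB2), 11 higher and none lower with SAHA (from -0.37, not called, for KCNK5 to 1.51 for KCNJ3), and 13 higher and 1 lower with both drugs (from -1.10, not called, for KCNK5, or -1.44 and called with the correction, to 1.61 for KCNC1). Over all genes tested, 25.5% were higher and 25.4% lower with BEZ-235, 22.2% and 20.9% with SAHA, and 33.2% and 31.2% with both drugs. The naming rule had already taken the highest and lowest called genes, so the counts of these 25 do not stand for the whole set. KCNC1, a fast delayed rectifier, rose by 0.30 with BEZ-235, 0.65 with SAHA and 1.61 with both drugs. KCNJ11, the other pore of ATP-sensitive channels, rose by 0.48 with BEZ-235, 0.59 with SAHA and 1.56 with both drugs. KCNK1 rose by 0.99 with BEZ-235, 1.03 with SAHA and 1.13 with both drugs. KCNK4, KCNH1 and KCNMB3 share 61.9%, 36.9% and 37.9% of their exon bases with another gene, so their counts are uncertain.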

How the data were processed

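The authors made expected counts per gene, and the submitters' processing notes name STAR, RSEM and build hg38. For versions, annotation release and the use of strand in counting, the sources used here give no statement. The deposited values are whole or fractional estimated counts and were rounded to whole counts here. Libraries were prepared from poly-A RNA with a stranded kit, per the labels' protocols, and replicates are called biological there, with no word on separate culture dates. P-values measure the spread between these libraries. Of 58051 genes, 57447 matched GENCODE release 29, which gave names, types and exon lengths.

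All 12 libraries entered 1 fit with 4 group means in edgeR 4.0.16 (R 4.3.3; filterByExpr, TMM scaling, robust quasi-likelihood test, Benjamini-Hochberg adjustment over 17774 genes, at 0.05), with 8 residual degrees of freedom. An SE is the size of the log2 fold change divided by the square root of F. CPM are the rounded counts over TMM-scaled library sizes. Alternatives were RLE scaling, DESeq2 1.42.0, no filter and a stricter filter on low counts, unrounded counts, a replicate block, offsets for GC content and length (mgcv 1.9.3), only the groups compared, and leaving out each library. The count of the correction by family was added after the data were seen. The fit was tested on simulated data. In a multi-mapping estimate, near-identical genes can trade counts.

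The gene set and the lists (channel partners, REST and its corepressors, DNA replication genes, and adrenergic, Schwann cell and glial, fibroblast, leukocyte and muscle markers) were chosen with earlier results of these data known. Genes were named by a rule: in each comparison with DMSO the 10 highest and 10 lowest called channel genes with no overlap between libraries, in each other comparison the 4 highest and 4 lowest called, genes switched on or off, the 4 with the highest level per exon length in each family, all tested sodium and calcium pore genes, and REST. Other genes named, among them those of the closing sentences on each group, were chosen after their values were seen. Replicate numbers did not pair the libraries. The interval and the floor of 3 counts cover counting error only. Results of some genes are not reported here.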

Additional observations from a re-analysis of the deposited data

Results flagged for a closer look

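The channel genes given here had a SAHA effect that differed with and without BEZ-235 by edgeR's quasi-likelihood test of the interaction, each given here as the log2 SAHA effect with BEZ-235 minus that without it. Those above 0 that were called in the same direction after the correction for GC content and length were SCNM1 (0.44), CACNG4 (0.83), KCNAB3 (1.00), KCNG1 (1.14), SCN4B (1.27), CACNA1H (1.39), KCNH4 (1.5), KCNN3 (1.58), KCNH6 (2.36) and KCNA2 (2.87). Those below 0 that were so called were CACNA2D1 (-1.03), KCNQ5 (-0.99), KCND1 (-0.98), CACNB2 (-0.95), KCNK9 (-0.91), KCNJ8 (-0.87) and SCN2B (-0.48). The others above 0 were KCNH2 (0.48), CACNB3 (0.48), KCNJ11 (0.49), CACNA2D2 (0.56), KCNAB2 (0.61), KCNN1 (0.63), KCNC1 (0.66), CACNB1 (0.71), CACNG7 (0.86), KCNH3 (1.07), KCNT1 (1.10) and SCNN1D (1.54). The others below 0 were KCNIP4 (-1.39), KCNJ3 (-0.94), SCN2A (-0.55), KCNT2 (-0.51) and KCNH8 (-0.51), and KCNH2 was called in the opposite direction after the correction (-0.59). Single libraries ended some of these calls: KCND1 was not called without DMSO replicate 2 (-0.79), SCN2B without BEZ-235 replicate 3 (-0.43), and KCNN1 without BEZ-235 replicate 3 (0.51), replicate 3 of both drugs (0.54) or DMSO replicate 2 (0.57). KCNH2 (0.39 to 0.45) and KCNH3 (0.87 to 1.07) were not called without any one of BEZ-235 replicates 2 and 3, SAHA replicate 2, replicates 2 and 3 of both drugs, and DMSO replicates 1 and 2. Libraries were left out in turn for the genes described one by one. The dependence of both-drug libraries on GC content moved with these values, and beyond the corrected values its part was not tested.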

How the results depend on the processing

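Directions and calls of 234 called values of the genes named were the same with RLE scaling and with unrounded counts. DESeq2 ended 6 calls and no filter on low counts 7. With the stricter filter, 204 values kept their call and 1 lost it. The rest could not be checked there, since that filter removed their genes (mean under 1 CPM). The correction for GC content and length ended 22 calls and reversed 8 values, and with the replicate block it ended 28 and reversed 8. The reversed values were, with the correction and with the correction and the block, -0.17 and -0.17 for KCNH2 with both drugs against DMSO, -0.41 and -0.41 against BEZ-235, -0.35 and -0.35 against SAHA, and -0.59 and -0.59 for its interaction. They were -0.0236 and -0.0218 for CACNA1B with both drugs against BEZ-235. For the interaction they were -0.0852 and -0.0835 for CACNB3, -0.0765 and -0.0782 for KCNN1, and 0.11 and 0.11 for SCN2A. The correction took the genes that both drugs lowered against BEZ-235 to 18, or 17 with the block, against 11. It took the interactions above 0 to 12, or 10 with the block, against 25, and with the block all interactions to 23, against 38. Genes switched on or off numbered 2 with the lower bound at 0.25 CPM and 0 with the upper bound at 1 CPM, against 1.

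The replicate block alone ended 4 calls (KCNG1 at -0.42 and KCNG3 at -0.92 with BEZ-235, KCNK10 at -0.94 with both drugs, and SCNN1D at 0.62 between BEZ-235 and SAHA). The replicate numbers share no more than a number: the correlations of same-numbered libraries' deviations ran from -0.164 to 0.128, and 1 of 12 libraries correlated best with its own number.

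With each library left out in turn, channel genes called numbered 41 to 48 with BEZ-235, 38 to 48 with SAHA, 54 to 59 with both drugs, 53 to 56 for both drugs against BEZ-235, 47 to 51 for both drugs against SAHA, 52 to 61 for BEZ-235 against SAHA and 31 to 43 for the interaction, and 1 gene was switched each time. Depth limits low genes: a count of 0 allowed up to 0.165 CPM in the shallowest library.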

Other observations

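A group of 3 channel genes that were not tested for lack of counts had counts mostly where SAHA was present, and were picked after their values were seen. KCNA7, a Shaker-type pore gene, held 2, 0 and 0 counts with BEZ-235, 8, 23 and 4 with SAHA, 11, 20 and 5 with both drugs, and 1, 3 and 0 with DMSO. KCNJ10, the inward rectifier of glia, held 3, 1 and 3 counts with BEZ-235, 13, 29 and 10 with SAHA, 9, 9 and 4 with both drugs, and 1, 0 and 1 with DMSO. The T-type calcium channel gene CACNA1I held 0, 1 and 0 counts with BEZ-235, 5, 13 and 5 with SAHA, 4, 10 and 8 with both drugs, and 0, 1 and 0 with DMSO. The second SAHA count of each is from the deepest library.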
